A study of Homo sapiens with 4 samples.

Results

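The D cyclins, the kinases of the G1 phase, their inhibitors and the retinoblastoma gene were examined in OCI-AML3, an established line of human acute myeloid leukaemia cells. The 10 genes were listed by symbol and found in the gene tables through their Ensembl identifiers: CCND1, CCND2 and CCND3 (D cyclins), CDK4, CDK6 and CDK2 (G1 kinases), CDKN2C, CDKN2D and CDKN1B (inhibitors) and RB1. Each symbol matched 1 of the 41084 identifiers in the tables. Poly(A) RNA of 4 libraries had been sequenced, 2 with the genotype label Plex CEBPB and 2 with the label Plex Control, with no further treatment or time in the labels. CEBPB encodes the myeloid transcription factor C/EBPβ. The word Plex, the way CEBPB was changed, and whether the cells were clones or pools are not given in the sources used here. Nor do the labels say that replicates came from separate cultures, so the p-values below measure only the spread between these libraries.

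D cyclins are made in response to growth signals and activate CDK4 and CDK6. These kinases phosphorylate the retinoblastoma protein, which then releases E2F factors to transcribe the genes of S phase; CDK2 with cyclin E continues that step. INK4 proteins, among them p18 (CDKN2C) and p19 (CDKN2D), bind CDK4 and CDK6, while p27 (CDKN1B) binds cyclin complexes and inhibits CDK2. In myeloid cells, G1 control is coupled to the exit from the cell cycle that accompanies maturation.

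CEBPB itself, identifier ENSG00000172216.6 on chromosome 20, stood at 4.72 and 4.47 TPM in the control libraries and at 536 and 339 TPM in the CEBPB libraries (TPM is an abundance per transcript length, scaled to the same sum in each library). All libraries went with their labels. Deposited counts summed to between 18151225 and 21950575 per library. Of 9 myeloid markers 8 reached 1 TPM in at least 1 library, ANPEP being the exception. Their summed level went from between 1966 and 2075 TPM in the controls to between 8008 and 8300 TPM in the CEBPB libraries. LYZ made up most of it, at 1413 and 1308 against 7686 and 7921 TPM. ITGAM was also higher in both CEBPB libraries than in both controls. SPI1, CD68, ELANE, CSF1R and MPO were lower in both, and CD33 and ANPEP overlapped between the groups. The defining T-cell, B-cell, erythroid, megakaryocyte, epithelial and endothelial markers stayed at 0.563 TPM or less in each library. The 3 fibroblast markers summed to between 1.32 and 1.49 TPM in the controls and between 21.8 and 22.3 TPM in the CEBPB libraries; DCN made up most of the latter (20.4 and 20.8 TPM), and COL1A2 stayed at 0.0198 TPM or less. The part of these marker shifts in the results was not tested.

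The kinases that pair with D cyclins and the main D cyclin were lower in the CEBPB libraries, and the 3 inhibitors were higher. CCND3, CDK4, CDK6 and RB1 fell by 0.55 to 0.91 on the log2 scale. CDKN2C, CDKN2D and CDKN1B rose by 0.67 to 1.23. CDK2 and CCND1 did not pass the test, and CCND2 held too few counts to be tested. Differences were tested with edgeR's quasi-likelihood test on all 13698 identifiers that passed the filter on low counts, and a gene passed at a Benjamini-Hochberg adjusted p under 0.05. Thus 3 of the 9 tested genes rose and 4 fell, where 23.7% of all tested identifiers were called higher and 24.7% lower. In either direction 48.5% of all tested identifiers were called; the 9 genes are few and were chosen with such results known, so their larger share carries no test. Against a change of 1.5-fold instead of 0, CDKN2C and CDKN2D were called higher and CCND3 and CDK4 lower, where 8.66% of all tested identifiers were called higher and 8.67% lower (17.3% in either direction). The TPM values of the groups did not overlap for 8 of the 9 genes, which also held for 77.4% of all tested identifiers. In RNA from whole cultures, fewer cells of a kind and less RNA per cell cannot be told apart.

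**Figure D1:**
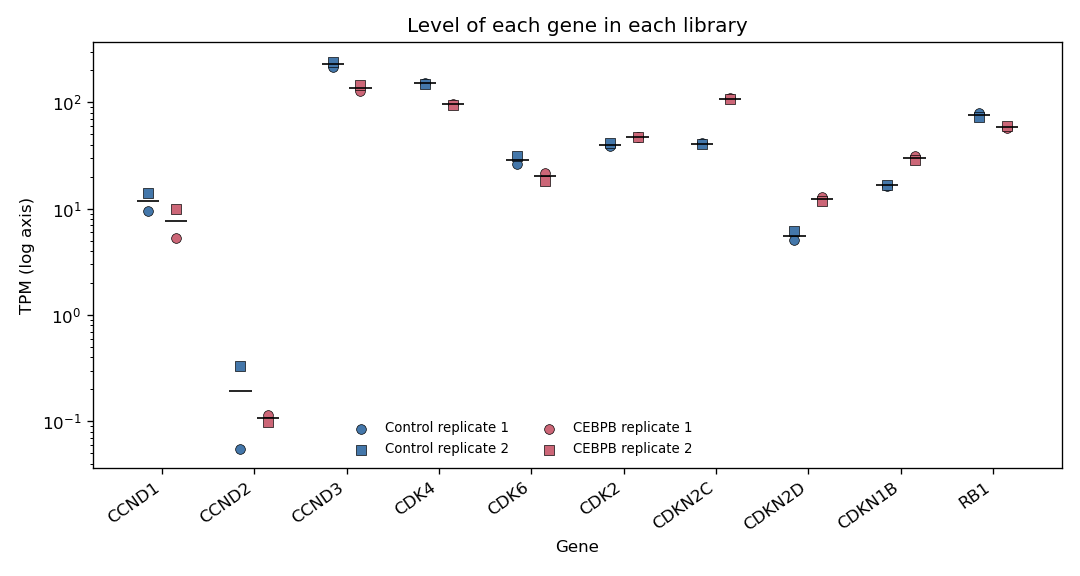
Level of the 10 genes in TPM (log axis) in each library; circles are replicate 1, squares replicate 2, and the bar is the group mean (n = 2 per group). The control and CEBPB libraries do not overlap for 8 genes, and they overlap for CCND1 and CCND2.

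**Figure D2:**
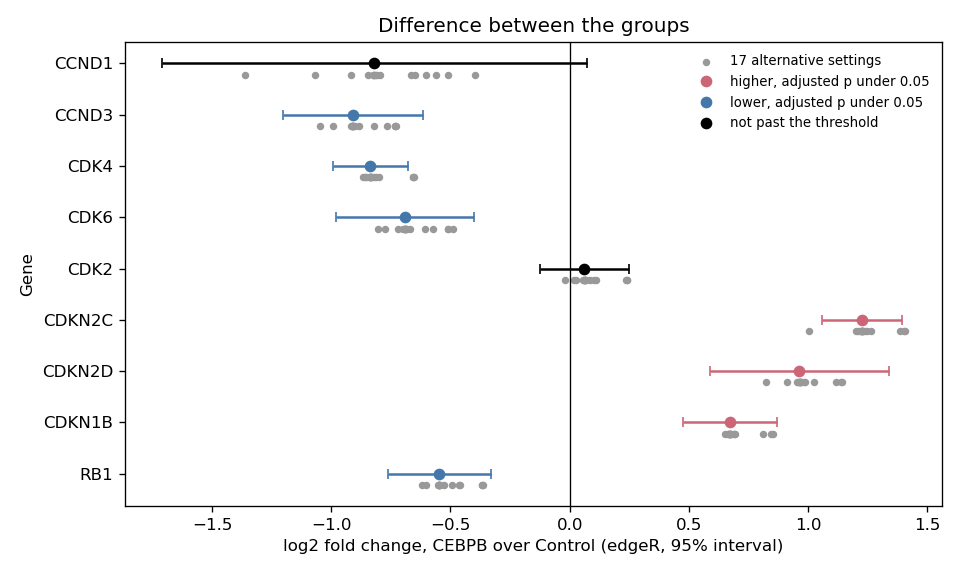
Log2 fold change of CEBPB over control for the 9 tested genes, with its 95% interval (edgeR); grey points are the values under 17 alternative settings. The 3 inhibitors lie above 0 and CCND3, CDK4, CDK6 and RB1 below 0 in every setting drawn, while CDK2 falls on both sides of 0.

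Libraries were scaled by trimmed mean of M values (TMM), which sets the bulk of genes to no change. With library totals alone, or on TPM as deposited, the median of all genes moved up by up to 0.18 on the log2 scale, and 65.2% of calls were higher instead of 49.0%. The ratio of CEBPB to control TPM is therefore a little higher than the fitted fold for every gene below. No direction of the 7 genes that passed depended on it.

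Among the D cyclins, CCND3 was by far the most abundant and fell. CCND3 (ENSG00000112576.13, chromosome 6, 41934933 to 42050357, minus strand in GENCODE v29 on GRCh38) was at 214 and 241 TPM in the controls and at 127 and 146 TPM in the CEBPB libraries. Both CEBPB libraries were below both controls. The fitted difference was -0.91 on the log2 scale (SE 0.12, adjusted p = 0.00243 by edgeR), a 1.88-fold lower level. It supplied 95% ± 0.96 of D cyclin TPM in the controls and 94.8% ± 1.6 in the CEBPB libraries (SD, n = 2), so the make-up of the D cyclin pool overlapped between the groups while its sum went from 239 ± 22.4 to 145 ± 16.7 TPM.

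CCND1, the D cyclin of many epithelial tissues and the partner gene of a lymphoma translocation (ENSG00000110092.4, chromosome 11, 69641087 to 69654474), was a minor component. It read 9.54 and 14.1 TPM in the controls and 5.35 and 9.87 TPM in the CEBPB libraries, so the groups overlapped. The log2 fold change of -0.82 (95% interval -1.71 to 0.07, adjusted p = 0.112, edgeR) did not pass. The call changed with the measure and with the libraries used. Multiplying TPM by effective length recovers the reads behind a level. By this measure the controls held 567 and 612 reads and the CEBPB libraries 389 and 415. Corrected for effective length, these reads gave -0.83 and did not pass (adjusted p = 0.0726, edgeR). Uncorrected for length, CCND1 passed (-0.56, adjusted p = 0.0103, edgeR). It also passed without CEBPB replicate 2 (-1.36, adjusted p = 0.0285, edgeR), and was at -0.40 (adjusted p = 0.316) without CEBPB replicate 1 and at -0.51 (adjusted p = 0.368) without control replicate 2. Exons of CCND1 share 497 of 4830 bases with LTO1 on the other strand, and the strand setting of the quantification is not given in the sources used here.

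CCND2, the D cyclin of many lymphoid and progenitor cells (ENSG00000118971.9, chromosome 12, 4273772 to 4305350), was close to absent. Its levels were 0.0554 and 0.33 TPM in the controls and 0.115 and 0.0982 TPM in the CEBPB libraries. These rest on 6 to 12 recovered reads per library, and a difference was not detectable at this depth. Exons of CCND2 share 989 of 7157 bases with AC008012.1 on the same strand, which read 1.58 to 3.79 TPM.

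Both kinases that pair with D cyclins fell; whether they fell by different amounts was not tested. CDK4 (ENSG00000135446.17, chromosome 12, 57747727 to 57756013, minus strand) was at 153 and 150 TPM in the controls and at 96.8 and 95.3 TPM in the CEBPB libraries. The libraries within each group lay close together and the groups were well apart. This was a fall by 0.84 on the log2 scale (SE 0.06, adjusted p = 0.000518 with edgeR), or 1.78-fold. TSPAN31 on the other strand covers 1369 of its 3168 exonic bases, and that gene read 20.7 to 31.8 TPM. CDK6 (ENSG00000105810.10, chromosome 7, 92604921 to 92836594, minus strand), which is prominent in blood progenitors, was at 26.4 and 31.0 TPM in the controls and at 21.9 and 18.4 TPM in the CEBPB libraries. All CEBPB values were below the controls, with a narrower gap than for CDK4. It fell by 0.69 on the log2 scale (SE 0.11; edgeR adjusted p = 0.00569) and did not pass the test against 1.5-fold (adjusted p = 0.269, edgeR). The proportion of the kinases overlapped between the groups: CDK4 made up 85.3% and 82.9% of their summed TPM in the controls and 81.6% and 83.8% in the CEBPB libraries. The sum went from 180.1 ± 0.65 to 116 ± 3.58 TPM.

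CDK2, the partner of cyclins E and A (ENSG00000123374.11, chromosome 12, 55966769 to 55972784), stood apart from the other kinases. It read 38.6 and 41.1 TPM in the controls and 47.0 and 47.1 TPM in the CEBPB libraries. The groups did not overlap in TPM, but after TMM scaling they did, at 41.2 and 43.6 against 42.9 and 45.6 scaled TPM. The log2 fold change was 0.06 (95% interval -0.12 to 0.25, adjusted p = 0.531, edgeR), and the interval leaves out a change of 1.5-fold. With library totals it was 0.24 (adjusted p = 0.0460, edgeR) and with recovered reads -0.018 (adjusted p = 0.824, edgeR), so its sign depended on the processing. The TPM of CDK2 relative to CDK4 and CDK6 together, which no scaling of libraries can move, was 0.215 and 0.227 in the controls and 0.396 and 0.415 in the CEBPB libraries.

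The promoter of CDK4 is shown because CDK4 fell with the tightest replicates of the lowered genes, and that of CDKN2C because it rose most. Each runs from 250 bases before to 50 after the RefSeq start, 5′ to 3′ on the gene's strand (GRCh38.p14). Capitals mark matches to the E-box CACGTG, the site type of MYC and its relatives, and to TTGCNNAA, the core of a C/EBP site, on either strand.
CDK4, chr12:57752261-57752560, minus strand: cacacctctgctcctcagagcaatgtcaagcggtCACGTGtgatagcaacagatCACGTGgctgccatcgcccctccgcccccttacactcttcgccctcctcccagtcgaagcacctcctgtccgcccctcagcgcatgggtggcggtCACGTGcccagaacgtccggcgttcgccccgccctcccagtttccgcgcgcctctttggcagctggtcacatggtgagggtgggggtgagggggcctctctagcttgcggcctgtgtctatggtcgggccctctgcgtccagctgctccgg
CDKN2C, chr1:50960495-50960794, plus strand: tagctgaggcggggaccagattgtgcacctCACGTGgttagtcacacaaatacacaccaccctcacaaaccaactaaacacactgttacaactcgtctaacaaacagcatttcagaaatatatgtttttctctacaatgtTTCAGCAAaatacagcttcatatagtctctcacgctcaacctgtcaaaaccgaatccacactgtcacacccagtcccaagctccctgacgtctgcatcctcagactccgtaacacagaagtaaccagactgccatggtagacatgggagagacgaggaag
CDK4 held 3 E-boxes, beginning 216, 196 and 101 bases before the start. CDKN2C held 1 E-box at 220 bases and 1 C/EBP match, TTCAGCAA, at 110 bases before the start. Promoter entries existed for 7 of the 10 genes (not CCND1, CCND2 and CDK2). An E-box was found in 3 of the 7 (CDK4, CDK6 and CDKN2C), against 7.43% of 27305 promoters of the same length. A C/EBP match was found in 1 of the 7, against 10.6% of all promoters. E2F sites, searched as TTTCCCGC, TTTGGCGC, TTTCGCGC and TTTGCCGC on both strands, were found in 0 of the 7 and in 3.33% of all promoters. The RB1 entry lies at an internal start of that gene, 172724 bases from the first base of the transcript RB1-201. The CDK6 start lies 2656 bases upstream of CDK6-201, a transcript of 11612 bases, and CDK6 effective lengths were 9878 to 10268 bases. The CDKN2C start is that of its transcript of 2904 bases. CDKN2C effective lengths were 1080 to 1251 bases, nearest to its transcript of 1220 bases, which starts 9199 bases downstream of the window's start site. Which starts were in use was not tested. These matches describe letters in a window and nothing was measured on binding.

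All 3 inhibitors rose, and CDKN2C rose most. CDKN2C (p18; ENSG00000123080.12, chromosome 1, 50960745 to 50974633, plus strand) was at 41.2 and 40.5 TPM in the controls and at 109 and 107 TPM in the CEBPB libraries. The replicates nearly coincided, and the groups were far apart. It rose by 1.23 on the log2 scale (SE 0.07; edgeR adjusted p = 0.000234), 2.34-fold, and passed against 1.5-fold (adjusted p = 0.000913, edgeR). CDKN2D (p19; ENSG00000129355.7, chromosome 19, 10566462 to 10569059, minus strand) was at 5.04 and 6.14 TPM in the controls and at 12.9 and 11.9 TPM in the CEBPB libraries. It was the scarcest of the inhibitors in both groups, with 113 to 272 recovered reads. The rise was 0.96 on the log2 scale (SE 0.15; edgeR adjusted p = 0.00444), or 1.95-fold. CDKN1B (p27; ENSG00000111276.12, chromosome 12, 12715058 to 12722371, plus strand) went from 16.4 and 16.8 TPM to 31.0 and 28.9 TPM. Both CEBPB libraries were above both controls. The log2 difference was 0.67 (SE 0.08; edgeR adjusted p = 0.00182), or 1.59-fold, and the test against 1.5-fold was not passed (adjusted p = 0.212, edgeR).

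RB1, the pocket protein on which these kinases act (ENSG00000139687.16, chromosome 13, 48303726 to 48599436), fell modestly. It was at 78.9 and 73.2 TPM in the controls and at 57.4 and 60.5 TPM in the CEBPB libraries. The groups did not overlap. The difference was -0.55 on the log2 scale (SE 0.09; edgeR adjusted p = 0.00475), and against 1.5-fold it did not pass (adjusted p = 0.925, edgeR). Its relatives RBL1 (-0.22, adjusted p = 0.0971) and RBL2 (0.17, adjusted p = 0.165, edgeR) did not pass. RB1 made up 55.2% ± 3.1 of the summed TPM of the 3 pocket proteins in the controls and 45.4% ± 1.4 in the CEBPB libraries.

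The opposite movement of CDK4 and CDK6 against CDKN2C, CDKN2D and CDKN1B changed the order of levels. In the controls the order by mean TPM was CCND3, CDK4, RB1, CDKN2C, CDK2, CDK6, CDKN1B, CCND1, CDKN2D and CCND2, and only CDKN2C and CDK2 overlapped as neighbours. In the CEBPB libraries CDKN2C stood second, above CDK4, CDKN1B passed CDK6, CDKN2D passed CCND1, and no neighbours overlapped. Ratios within a library are free of library scaling. CDKN2C over CDK4 was 0.269 and 0.271 in the controls and 1.126 and 1.128 in the CEBPB libraries. The sum of CDKN2C and CDKN2D over the sum of CDK4 and CDK6 was 0.258 in both controls and 1.03 and 1.05 in the CEBPB libraries, a 4.03-fold higher mean. By contrast, D cyclins over CDK4 and CDK6 read 1.24 and 1.41 against 1.12 and 1.38, and overlapped. CDKN1B over CDK2 went from 0.424 and 0.410 to 0.659 and 0.612. With its relatives CDKN1A and CDKN1C added to CDKN1B, the ratio to CDK2 went the other way. It was 7.23 and 5.90 in the controls and 2.35 and 2.59 in the CEBPB libraries. With 2 libraries against 2, an exact permutation test of such a ratio cannot give a two-sided p under 0.33, so these are descriptions, and they concern RNA and not protein.

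**Figure D3:**
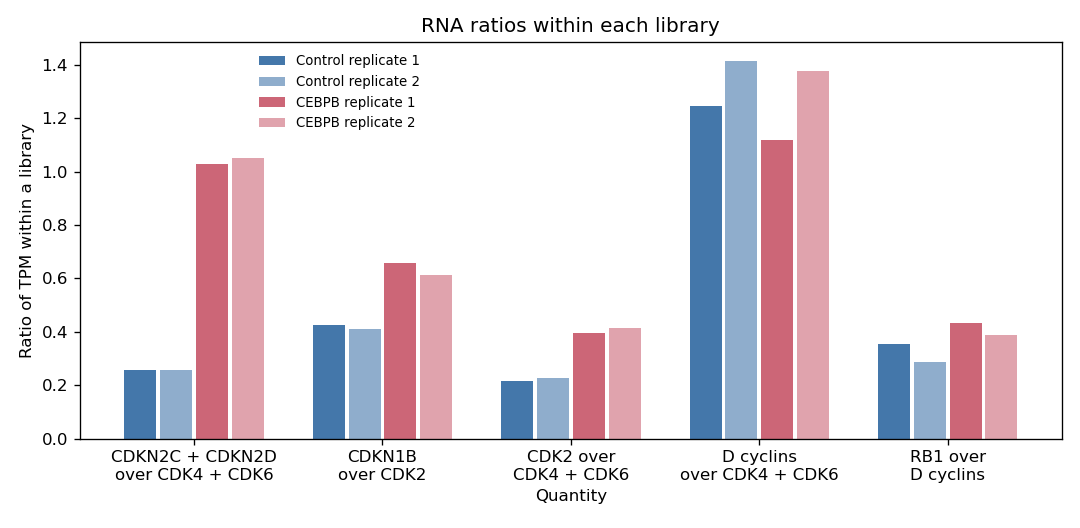
Ratios of TPM within each of the 4 libraries; bars start at 0, and the paler bar of each colour is replicate 2. The ratio of CDKN2C and CDKN2D to CDK4 and CDK6 is 0.258 in both controls and 1.03 and 1.05 in the CEBPB libraries. The bars of D cyclins over CDK4 and CDK6 overlap between groups. The ratio of CDKN2C and CDKN2D to CDK4 and CDK6 leaves out CDKN2A and CDKN2B, and CDKN1B over CDK2 leaves out CDKN1A and CDKN1C.

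The other inhibitors of the same families did not all follow. CDKN1A, which encodes p21, fell from 263 and 225 TPM to 79.7 and 93.4 TPM (-1.67, SE 0.13, adjusted p = 0.000597, edgeR). Because p21 was the most abundant of its family, the summed TPM of CDKN1A, CDKN1B and CDKN1C was lower in the CEBPB libraries (111 and 122) than in the controls (279 and 242) although CDKN1B rose. The share of CDKN1B in that sum went from 6.4% ± 0.76 to 25.8% ± 3.1. CDKN1C was listed at 0 in every library. CDKN2A fell from 65.4 and 53.1 TPM to 31.8 and 31.5 TPM (-1.08, adjusted p = 0.00147, edgeR); the gene-level value joins p16, an INK4 protein, with ARF, which is not one. CDKN2B, which encodes p15, rose from 1.08 and 1.24 TPM to 2.92 and 2.90 TPM (1.12, adjusted p = 0.0208, edgeR). The sum of all 4 INK4 genes was 113 and 101 TPM in the controls and 157 and 154 TPM in the CEBPB libraries, 1.45-fold higher in the mean, against 2.6-fold for CDKN2C and CDKN2D alone. The INK4 and p21 families together were lower in the CEBPB libraries, at 267 and 276 TPM against 392 and 343 TPM. INK4 genes supplied 29.1% ± 0.46 of that total in the controls and 57.2% ± 2.0 in the CEBPB libraries.

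The abundance-weighted effective length of each gene's transcripts, a further deposited measure, can move with the transcripts in use. CDKN2C was shorter in the CEBPB libraries, at 1084 and 1080 bases against 1251 and 1187 bases. The drop was 11.3% of the control mean. GENCODE v29 lists 3 CDKN2C transcripts of 2904, 2086 and 1220 bases, and the shortest starts 9199 bases downstream of the promoter printed above. Because length enters the level, CDKN2C rose by 1.00 with recovered reads (adjusted p = 4.2e-05, edgeR) against 1.23 in TPM-scaled counts. RB1 was longer in the CEBPB libraries (3544 and 3431 against 2992 and 3347 bases) and CCND3 slightly so (2291 and 2287 against 2266 and 2177). The lengths of the groups did not overlap for 3 of the 9 tested genes, where that held for 52.3% of all tested identifiers. A shift past 1.2-fold without overlap was seen for 0 of 9, against 8.11% of all tested identifiers. CDK4, CDK6, CDK2, CDKN2D and CDKN1B overlapped in length.

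**Figure D4:**
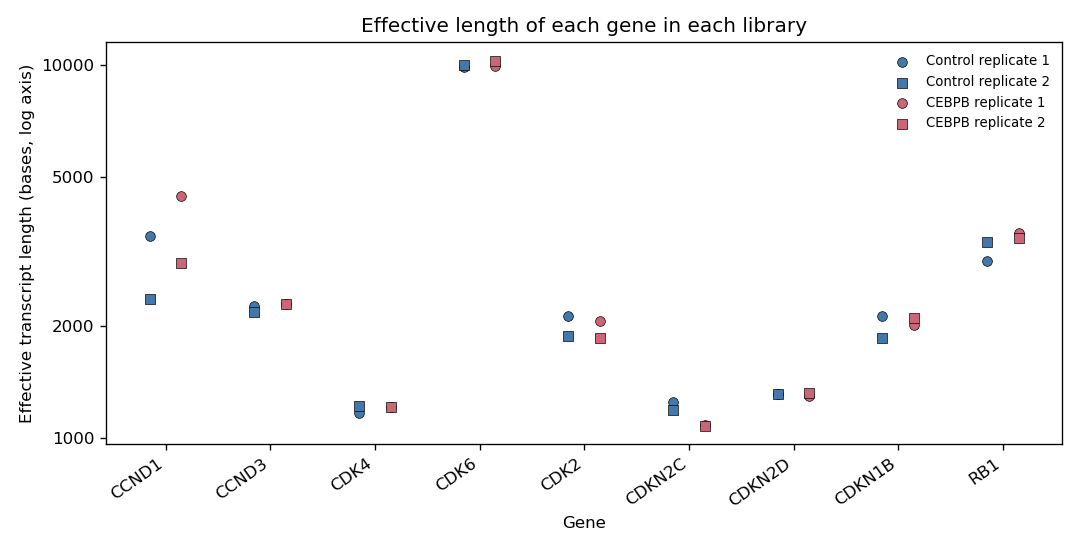
Effective transcript length in bases (log axis) of the 9 tested genes in each library; circles are replicate 1 and squares replicate 2. CDKN2C lies at 1084 and 1080 bases in the CEBPB libraries and at 1251 and 1187 bases in the controls, and CCND1 spreads from 2361 to 4451 bases.

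In the rest of the G1 network, 11 of 38 measured genes rose and 7 fell, near the shares over all tested identifiers (23.7% higher and 24.7% lower); their median log2 fold change was 0.03, beside 0.00092 over all. Fewer of these genes rose with any 1 library left out, and fewer of all tested identifiers were called higher in those fits too. By role, 2 of 4 cyclin E and A genes rose and 1 fell. CCNE1 fell from 23.2 and 23.1 to 17.5 and 16.5 TPM (-0.62, adjusted p = 0.00255, edgeR), while CCNE2 rose from 23.4 and 21.9 to 39.8 and 47.4 TPM (0.77, adjusted p = 0.00609, edgeR). Of 10 E2F and DP genes 3 rose and 3 fell. The activator E2F1 fell (-0.68), as did E2F4 (-0.75), which acts with the pocket proteins RBL1 and RBL2, and the dimer partner TFDP1 (-0.58). The repressor E2F7 rose from 2.82 and 2.51 to 8.48 and 7.23 TPM (1.38), and E2F6 (0.29) and TFDP2 (0.63) rose. E2F2 (0.20), E2F3 (-0.20), E2F5 (-0.15) and E2F8 (0.32) did not pass. Of 7 genes of pocket proteins, the MuvB core and its partner MYBL2, 3 rose and 1 fell. LIN54 (0.99), LIN52 (0.76) and LIN37 (0.37, adjusted p = 0.0492, edgeR), subunits of the core that forms the repressor DREAM with RBL1 or RBL2, rose. LIN9, a further subunit of that core, did not pass (0.12, adjusted p = 0.322, edgeR). MYBL2 (-0.63), which binds that core in a complex other than DREAM and activates cell cycle genes, fell. Of 5 genes of CDK activation 0 passed with edgeR, 0 with DESeq2 and 0 with limma-voom, and 2 had an unadjusted p under 0.05, both lower. Of 9 genes for the turnover of cyclins and p27, CUL1 (0.27) and GSK3B (0.22) rose (edgeR; 0 rose with DESeq2 and 1 with limma-voom) and 0 fell with any of these, also at an unadjusted p under 0.05; SKP2, which targets p27 for degradation, was at -0.10 (adjusted p = 0.340, edgeR).

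Downstream, of 38 E2F target genes of DNA replication 21 fell and 6 rose, with a median of -0.28, where 24.7% of all tested identifiers fell and 23.7% rose. On library totals or log2 TPM, 14 of these targets fell and 8 rose. Of all 13698 tested identifiers, 4424 to 4498 rose and 2360 to 2448 fell in these settings, against 3251 and 3390 with TMM. The uracil glycosylase UNG (-1.23), the methylation reader UHRF1 (-1.26) and CDCA7 (-1.24) led the falls, and RRM2, a subunit of ribonucleotide reductase, rose (1.2). All 6 replicative helicase genes from MCM2 to MCM7 fell, by 0.29 to 0.75, though 5 passed on library totals, on log2 TPM or without either control library, and 1, MCM2, passed against 1.5-fold. Of 22 mitotic genes 4 rose and 6 fell, with a median of 0.01, which is near those shares over all identifiers. Among them UBE2C, which marks mitotic cyclins for destruction, fell (-0.84), and the kinesins CENPE (0.71) and KIF20A (0.89) and the proliferation marker MKI67 (0.62) rose. Scaled by library totals, 9 mitotic genes rose and 2 fell, where 4424 of all tested identifiers rose and 2360 fell. With any 1 library left out, fewer E2F targets fell, and fewer rose except without CEBPB replicate 2. Fewer mitotic genes fell without control replicate 1 or without control replicate 2. Over all tested identifiers, too, fewer were called in either direction in each of these fits.

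**Figure D5:**
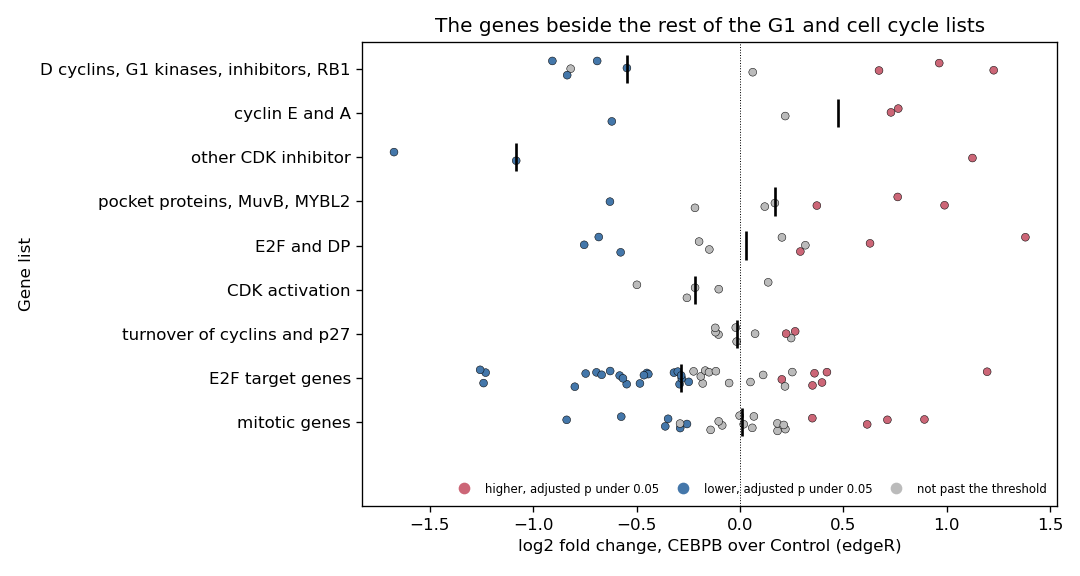
Log2 fold change (edgeR) of each tested gene in the 10-gene set, in the other G1 genes by role, and in E2F target and mitotic genes; the bar is the list's median and points are spread vertically for legibility. The set splits into 3 genes above 0.6 and 5 below -0.5, with CDK2 near 0, and the E2F targets have a median of -0.28.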

How the data were processed

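RNA sequencing of 4 OCI-AML3 libraries (2 CEBPB, 2 Control) was analysed at gene level. Per the submitters' processing notes, Trimmomatic 0.39, kallisto 0.46.2 and the GRCh38 build were used; the annotation release, strand setting and step from transcripts to genes are not given in the sources used here. The authors deposited expected counts (named raw counts), TPM and the effective length of each gene in bases. In the deposited expected counts each value is the TPM times 1 constant per library, so they carry no transcript length. Symbols matched 35690 of 41084 identifiers, and coordinates are from GENCODE v29; promoters are from RefSeq (GRCh38.p14).

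Counts were rounded, filtered with filterByExpr (13698 identifiers left) and scaled by TMM, with factors from 0.938 to 1.09. The test was the quasi-likelihood F test of edgeR 4.0.16 (R 4.3.3), with Benjamini-Hochberg adjustment over all of them; intervals are 95%. The biological coefficient of variation was 11.3%. In data simulated for this comparison with 13439 genes, edgeR called 42.5% of 80 genes altered 1.5-fold, 76.2% of 80 altered 2-fold and 90% of 40 altered 4-fold. There were 13 false calls. No other genes were altered in the simulation, whereas 48.5% of tested identifiers were called in the data. The shares recovered therefore need not hold for the real comparison. Recovered reads are the product of TPM and effective length, brought to each library's total; 31 of 40 values of the 10 genes lay within 0.01 of a whole number.

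The genes, lists and alternatives were chosen with earlier results of these data known. All 10 genes are named, and in each list up to 4 genes with the smallest adjusted p, with both directions where both passed; further list genes named by role, and MCM2 to MCM7, were chosen after their values were seen. Alternatives were scaling by library totals, by upper quartiles or by DESeq2 size factors; no filter or a minimum of 1 CPM in 2 libraries; other tests (limma-voom with limma 3.58.1, DESeq2 1.42.0, a test against 1.5-fold, limma on log2(TPM + 1) and log2(TPM + 0.1)); recovered reads with and without a length offset; a replicate block; and each library left out, with a lone library taken to spread as the other group does. TPM sums and ratios are given per library and were not recomputed under these.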

Additional observations from a re-analysis of the deposited data

How the results depend on the processing

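Of the 7 genes that passed (CCND3, CDK4, CDK6, CDKN2C, CDKN2D, CDKN1B and RB1), all kept direction and passed in the 16 alternatives other than the test against 1.5-fold, 112 of 112 results. In that test 2 of the 10 genes rose and 2 fell, since CDK6, CDKN1B and RB1 did not pass. CDK2 changed sign with recovered reads (-0.018) and passed on library totals (0.24) and on log2 TPM (0.24 with either 1 or 0.1 added, limma). Replicate numbers are shared between groups by number only: the deviations of same-numbered libraries correlated at -0.013. With a replicate block 3174 identifiers were higher and 3308 lower, against 3251 and 3390, and of these 10 genes only CCND1 changed its call (-0.85, adjusted p = 0.00972, edgeR). CCND2, absent from the test, was at -0.76 without a filter, 0.28 on recovered reads and -0.72 once a length offset was added, none passing.

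Against 1.5-fold, 2 of 38 other G1 genes rose and 2 fell. Of 38 E2F targets 1 rose and 5 fell, and of 22 mitotic genes 1 rose and 1 fell. Over all tested identifiers 8.66% were called higher and 8.67% lower in that test. Of other G1 genes, 7 rose without a filter, 6 rose with DESeq2, and 14 fell with recovered reads. Over all identifiers 3072 rose without a filter, 2628 rose with DESeq2 and 4209 fell with recovered reads. In the main fit 3251 rose and 3390 fell. Mitotic genes numbered 9 higher and 2 lower with library totals and with log2 TPM (limma, either value added), and 7 higher with recovered reads. Of all tested identifiers, 4424 to 4498 were higher and 2360 to 2448 lower with library totals or log2 TPM, and 4179 were higher with recovered reads. With any 1 library left out, fewer other G1 genes rose and fewer E2F targets fell, and fewer mitotic genes fell without either control library. Over all tested identifiers, too, fewer were called in either direction in each of these fits. The cause of these shifts was not tested. Depth limits CCND2 most, and CDKN2D next among these genes.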

Other observations

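CCND1 varied within each group along with its deposited length. Replicate 2 of each group had the higher level (14.1 against 9.54 TPM in the controls, 9.87 against 5.35 TPM with CEBPB) and the shorter effective length (2361 against 3476 bases, and 2945 against 4451 bases). Per 1000000 of the library total, the recovered CCND1 reads were 28.5 and 28.3 in the controls and 17.7 and 22.9 in the CEBPB libraries, so the controls nearly coincided in reads while they differed in TPM. The length of 4451 bases in CEBPB replicate 1 is above that of the longest CCND1 transcript in GENCODE v29, 4307 bases.

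The balance of the cyclin E genes differed between the groups. CCNE2 made up 50.3% and 48.7% of the summed TPM of CCNE1 and CCNE2 in the controls and 69.4% and 74.1% in the CEBPB libraries, and their sum was 46.6 and 45.1 against 57.3 and 63.9 TPM.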
